A study of Mus musculus with 29 samples.

Results

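Translation factors are the proteins that carry a ribosome onto an mRNA and along its coding sequence. The genes described here are the rows of a mouse expression table whose symbols begin with Eif1 to Eif6, Eef1 or Eef2: 70 of the 30025 genes listed, 65 of them protein coding, 4 pseudogenes and 1 antisense row. They were followed in 29 RNA-seq libraries from sorted bone marrow stem and multipotent cells of 10 mice.

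Initiation begins when eIF2, bound to GTP, brings the initiator tRNA to the small ribosomal subunit, helped by eIF1, eIF1A, eIF5 and the many-subunit eIF3. The eIF4 factors recognise the mRNA cap and unwind the leader, and the eIF4E binding proteins hold the cap-binding factor eIF4E in check. eIF2B reloads eIF2 with GTP, and the eIF2 alpha kinases block that step under stress. Elongation then runs on eEF1, which delivers aminoacyl-tRNA, and on eEF2, which moves the ribosome by a codon. Blood-forming stem cells are known for a low rate of protein synthesis compared with their progeny.

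WT mice were compared with 5A3+/del mice, which carry a heterozygous germline deletion of a chromosome 5 interval that corresponds to part of human chromosome band 7q22 and was made by Cre recombination in embryonic stem cells. All mice were on a C57BL/6J background, and their labelled ages were 12.42 to 13.28 weeks for WT and 12.42 to 13.85 weeks for 5A3+/del. From each animal, c-kit+ Lin- Sca-1+ CD41- CD48- cells were sorted by CD150 into CD150hi HSC, CD150lo HSC and CD150neg MPP (a label also calls the last CD150neg HSC), with no further treatment. Each group held 5 libraries except 5A3+/del CD150neg MPP, which held 4, and a code in the labels ties the libraries of a mouse to each other. The deletion was inherited through the germline and so is not limited to blood cells. In these bulk libraries, made from amplified RNA, fewer cells of a kind within a sort and less RNA of a gene per cell cannot be told apart.

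Values are FPKM, fragments per kilobase of transcript scaled to the size of the library, and normalized FPKM below means FPKM after quantile normalization across libraries. The depth was 21229490 to 38797569 fragments per library as rebuilt from the steps between low values, with a median of 26967107. The sort could be read in the surface markers: deposited FPKM of Slamf1, which encodes CD150, was 9.97 to 22.6 in the CD150hi libraries, 0.180 to 2.64 in CD150lo HSC and at most 0.296 in CD150neg MPP. A list of 7 stem and multipotent cell markers held Slamf1, Cd48, Itga2b, Kit, Ly6a, Cd34 and Flt3, and all were detected. Cd48 was at up to 10.5 FPKM in CD150neg MPP although these cells were gated as CD48-. Cd34 and Flt3, at up to 200 and 62.4 FPKM, were not used in this sort, so that the sum of the list does not describe the gate. The median of this sum was higher in 5A3+/del than in WT in each sort, with overlapping ranges. In CD150hi HSC it was 317 FPKM (297 to 369) in WT and 392 (348 to 483) in 5A3+/del. For CD150lo HSC it was 422 (361 to 530) against 523 (481 to 560), and for CD150neg MPP 510 (471 to 574) against 616 (473 to 650). The part of this sum in the genotype differences was not tested. B cell markers summed to at most 10.5 FPKM and T cell markers to at most 4.89 FPKM in any library. Megakaryocyte markers summed to at most 57.7, and neutrophil and monocyte markers to 179 to 323, of which Lyz2 alone gave 148 to 254. In CD150hi HSC, Mpo was at 0.132 to 19.7 FPKM in WT and 0 to 0.114 in 5A3+/del. For Elane these ranges were 0 to 19.1 and 0 to 0.287, and for Ly6g 0 to 9.31 and 0. Those of Prtn3, Csf1r and Lyz2 overlapped there. The part of these genes in the genotype differences was not tested. Among the B cell genes, Ebf1 reached 7.09 FPKM and Cd79a 2.85 in WT CD150neg MPP, while Ms4a1 did not exceed 0.0441. Of the T cell genes, Cd4 was detected in every library and reached 4.89 in 5A3+/del CD150lo HSC, while Cd3g did not exceed 0.104.

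A single animal stood apart from the other 9. In the 3 libraries of WT mouse 3, deposited FPKM of the Y-linked genes Ddx3y, Kdm5d and Uty was at most 0.0687, against 5.88 to 25.4 in the other 26 libraries. Xist, the RNA that coats an inactive X chromosome, was at 234 to 319 FPKM in those 3 libraries and at most 0.470 elsewhere. The labels give no sex. Values without this mouse are therefore given beside several of the results that rest on WT libraries.

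Some members are close in sequence to each other, and the stretches of 3 such pairs printed here show how far reads of 100 bases could separate them; capitals mark bases that differ within a pair, and all are in the sense of the gene on mm9. Eif3s6-ps1 (chr11:9637155-9637624, minus strand) is a pseudogene of Eif3e, and its stretch at chr11:9637495-9637614 differs by 1 base from coding bases 875 to 994 of Eif3e, which lie in 2 exons within chr15:43092673-43094221, minus strand.
Eif3s6-ps1: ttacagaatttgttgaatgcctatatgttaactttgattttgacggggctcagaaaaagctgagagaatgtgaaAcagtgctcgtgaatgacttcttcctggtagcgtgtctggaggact
Eif3e: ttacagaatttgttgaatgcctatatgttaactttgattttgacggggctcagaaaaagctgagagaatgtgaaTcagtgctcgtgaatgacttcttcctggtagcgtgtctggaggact
Eif4a-ps4 (chr1:60760776-60761993, plus strand) carries a single mismatch against the coding sequence of Eif4a1, and the stretch around it is at chr1:60761259-60761358 in the pseudogene and within chr11:69482187-69482610, minus strand, in Eif4a1.
Eif4a-ps4: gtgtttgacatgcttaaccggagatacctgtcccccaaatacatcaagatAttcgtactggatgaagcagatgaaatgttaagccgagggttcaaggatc
Eif4a1: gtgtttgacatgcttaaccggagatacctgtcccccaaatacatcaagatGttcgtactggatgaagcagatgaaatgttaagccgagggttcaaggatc
Eif2s3y and Eif2s3x, the Y- and X-linked genes for the gamma subunit of eIF2, are the third pair printed, shown around their longest identical run, within chrY:359870-364672, plus strand, and chrX:91436220-91441658, minus strand.
Eif2s3y: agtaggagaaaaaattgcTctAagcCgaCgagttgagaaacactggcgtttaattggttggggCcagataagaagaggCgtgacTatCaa
Eif2s3x: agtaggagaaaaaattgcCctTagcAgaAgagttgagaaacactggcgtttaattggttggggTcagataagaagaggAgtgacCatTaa

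Along the aligned Eif3e pair, 96.5% of positions were identical and 59 of 362 windows of 100 bases held no difference. For Eif4a-ps4 and Eif4a1 the identity was 99.9%, and 1019 of 1119 windows held no difference. Eif2s3y and Eif2s3x were 86.4% identical with a longest identical run of 34 bases, so that none of 1316 windows was shared. Eif5al3-ps, a pseudogene of Eif5a, was 97.2% identical to it and shared 18 of 335 windows. Values of Eif3s6-ps1, Eif4a-ps4 and Eif5al3-ps are therefore uncertain, since the counting could have split or shared their reads with the parent gene. No window was shared between the coding sequences of Eif4a2 and Eif4a1, Eif1a and Eif1ax, or Eif5a2 and Eif5a.

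Of the 70 members, 67 passed the filter of at least 1 FPKM in at least 4 libraries. The cap-binding paralog Eif4e1b had at most 4 fragments in a library, the pseudogene Eif3s6-ps2 at most 2, and Eef1a2, the eEF1A gene known from muscle and neurons, at most 9. Eef1a2 was at 0 in every CD150lo and CD150neg library. The counts of Eif4e1b and Eif3s6-ps2 say only that the transcripts were near or under the limit of 3 fragments that a count of 0 allows. Eef1a2 rose above that limit in 5A3+/del CD150hi HSC, where 3 of 5 libraries were at 0.

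**Figure D1:**
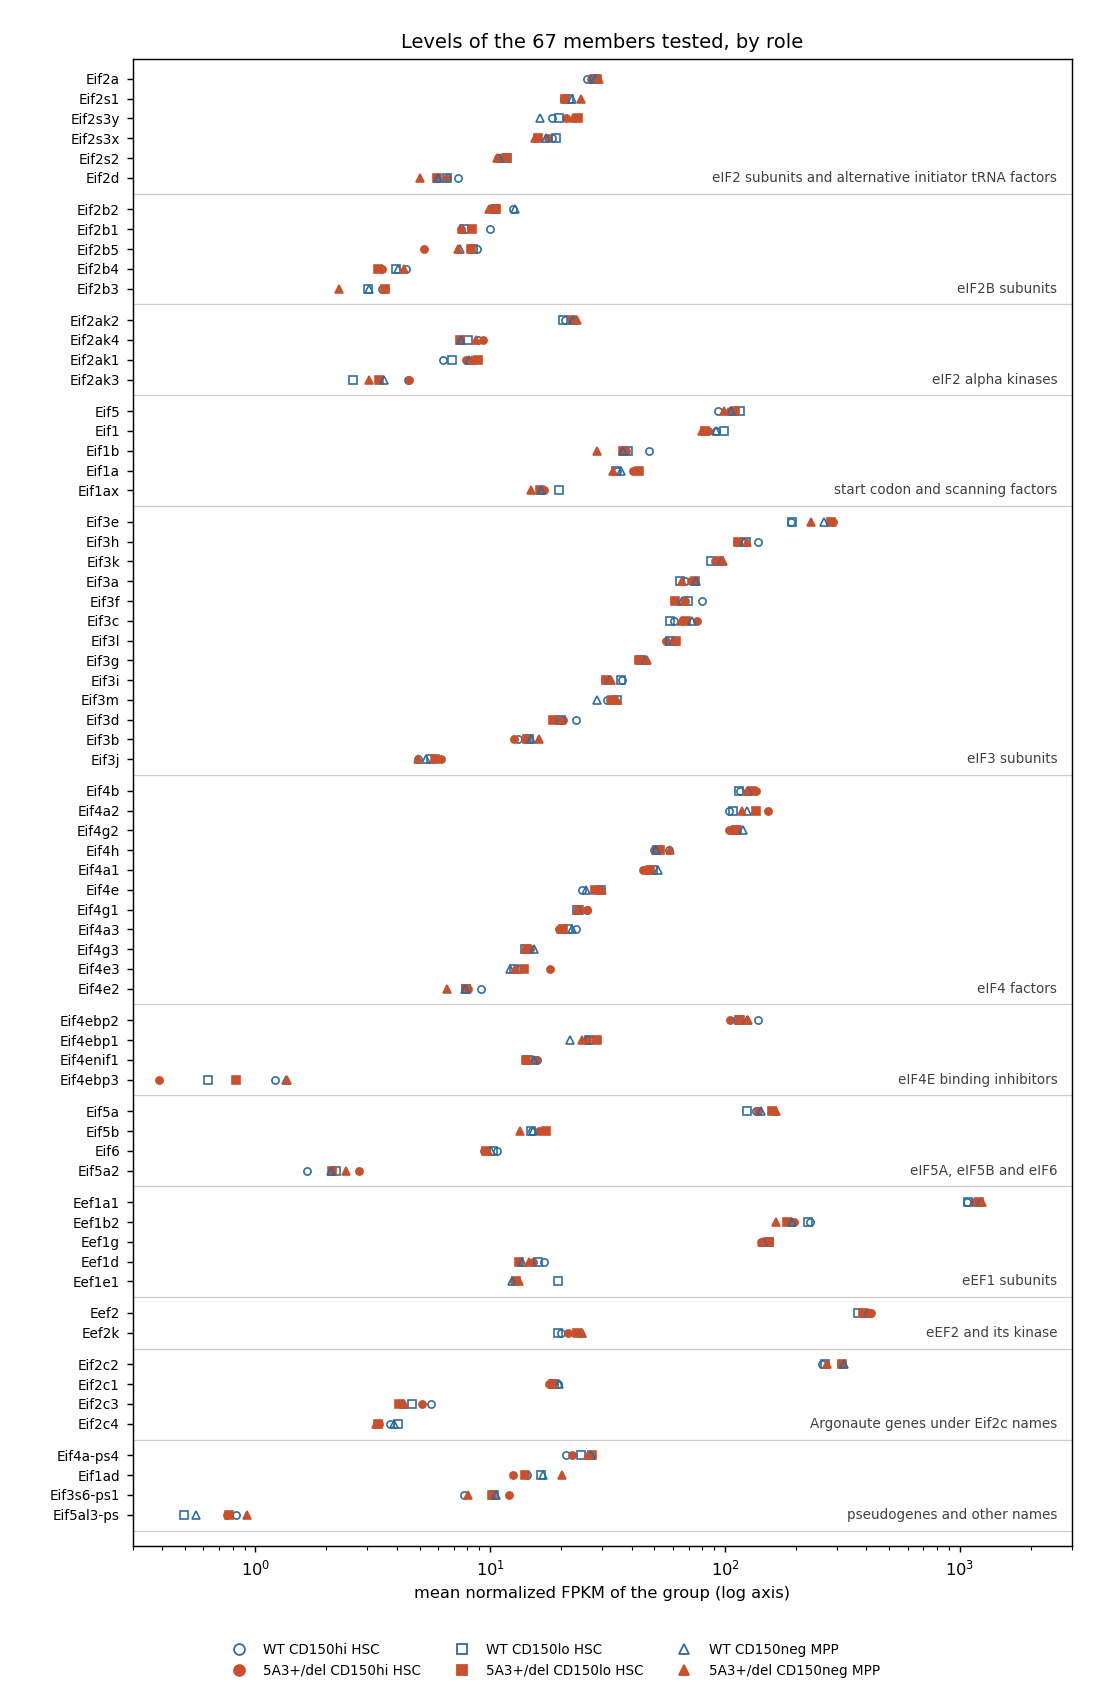
Mean normalized FPKM of each group (log axis) for the 67 members tested, arranged by role. Open blue marks are WT and filled orange marks 5A3+/del, with a circle for CD150hi HSC, a square for CD150lo HSC and a triangle for CD150neg MPP. Eef1a1 is highest at 1163, and the marks of a gene lie close together for most members.

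Mean levels ran from 0.714 to 1163 normalized FPKM. Eef1a1, which encodes the main aminoacyl-tRNA carrier, had a mean of 1163 ± 115 normalized FPKM (SD over all 29 libraries), and Eef2, the translocase, had 400.4 ± 39.7. Eif3e, a subunit of eIF3, followed at 243 ± 53.5, and the eEF1 subunits Eef1b2 and Eef1g stood at 200.2 ± 28.3 and 148 ± 18.4. In all, 13 members averaged at least 100 normalized FPKM, 17 averaged under 10, and 2 under 1. The row named Eif2c2, at 291 ± 53.4, carries the identifier ENSMUSG00000093631 and the type antisense, and GENCODE gives another identifier to the Argonaute gene of that name, so that its level cannot be ascribed to that mRNA.

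The initiation factors proper filled the middle of the range. Among the factors of scanning and start codon selection, Eif5, which makes eIF2 hydrolyse its GTP, stood at 105 ± 14.5, Eif1 at 88.4 ± 10.6, and Eif1b, Eif1a and Eif1ax between 37.96 and 16.8. The 13 eIF3 subunits did not have like mRNA levels although they form a complex: below Eif3e they ran from 122 (Eif3h) and 93.4 (Eif3k) down to 14.2 (Eif3b) and 5.49 for the loosely bound Eif3j. Eif4b, which aids the helicase, was the highest eIF4 gene at 124 ± 14.2, followed within its spread by Eif4a2. Of the scaffold genes, Eif4g2 was at 111 ± 11.3, Eif4g1 at 24.4 ± 2.31 and Eif4g3 at 14.5 ± 1.74. The subunits of eIF2 lay lower, with Eif2s1 (alpha) at 21.6 ± 3.51 and Eif2s2 (beta) at 11.2 ± 2.05, and Eif2a, an alternative initiator tRNA carrier that is not a subunit, at 27.6 ± 3.50. Eif5a stood at 143 ± 19.95, its paralog Eif5a2 at 2.21 ± 0.976, and Eif5b, which joins the subunits, at 15.4 ± 2.87.

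The low end was held by regulators. All 5 eIF2B subunits averaged between 3.19 (Eif2b3) and 11.1 (Eif2b2) normalized FPKM. Among the eIF2 alpha kinases, Eif2ak2 (PKR, which senses double-stranded RNA) was highest at 21.96 ± 3.90, then Eif2ak4 (GCN2, amino acid shortage) at 8.29 ± 1.45, Eif2ak1 (HRI, heme shortage) at 7.70 ± 1.47 and Eif2ak3 (PERK, endoplasmic reticulum stress) at 3.61 ± 1.01. The levels of Eif2ak4 and Eif2ak1 lay within their spread of each other. Eif6, which keeps the large ribosomal subunit from joining too early, was at 9.96 ± 1.95.

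The cap-binding factor and its inhibitors were unequal on this scale. Eif4e stood at 27.8 ± 4.01 normalized FPKM, and its inhibitor Eif4ebp1 at 25.7 ± 4.98, within the spread of Eif4e. Eif4ebp2 was at 120 ± 24.3, above both in each group mean. Eif4ebp3 averaged 0.946 ± 1.05 and its deposited values rested on 1 to 78 fragments per library. They varied widely between libraries of a group, as from 9 to 78 fragments in WT CD150neg MPP, and its differences between groups were not resolved. Among the helicases of the cap complex, Eif4a2 averaged 124 ± 23.6 and Eif4a1 48.1 ± 4.62, the latter with the read sharing given above.

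The typical member varied less between groups than the typical gene in the table. The range across the 6 group means was a median of 0.32 on the log2 scale over the 67 members and 0.47 over the 15409 genes tested, and the SD between libraries of a group was 0.24 against 0.33. The members were also the more abundant genes, with a median level of 21.6 normalized FPKM against 5.91, and the role of abundance in the smaller spread was not tested. Summed over the 67 members, normalized FPKM per group ran from 4383 ± 234 (SD, n = 5) in WT CD150lo HSC to 4713 ± 154 (SD, n = 5) in WT CD150neg MPP, and the ranges of these groups overlapped.

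The steadiest members over all 29 libraries, by coefficient of variation, were Eif2c1 (9.00%), Eif4g1 (9.46%), Eif4a1 (9.61%), Eef1a1 (9.86%) and Eef2 (9.90%). At the other end stood Eif4ebp3 (111%) and Eif5al3-ps (59.1%), both under 1 normalized FPKM on average, Eif5a2 (44.2%) and Eif2s3y (38.4%). Among members above 10 normalized FPKM, Eef1e1 (32.1%), Eif2b2 (28.6%) and Eif4e3 (27.5%) varied most after Eif2s3y.

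The X- and Y-linked genes of eIF2 gamma were the members in which a single animal set the values. Normalized FPKM of Eif2s3y was 20.1, 19.0, 0, 28.4 and 24.4 in WT CD150hi HSC, mice 1 to 5, and 19.5, 20.8, 21.8, 27.2 and 16.1 in 5A3+/del CD150hi HSC. It was 0.125 in WT CD150lo HSC and 0.0765 in WT CD150neg MPP of mouse 3. In the same 3 libraries Eif2s3x was at 25.9, 27.9 and 27.6, above every one of the other 26 libraries, which ran from 11.3 to 21.3 with a median of 16.1. Thus the animal with Eif2s3y at or near 0 had the highest Eif2s3x values.

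**Figure D2:**
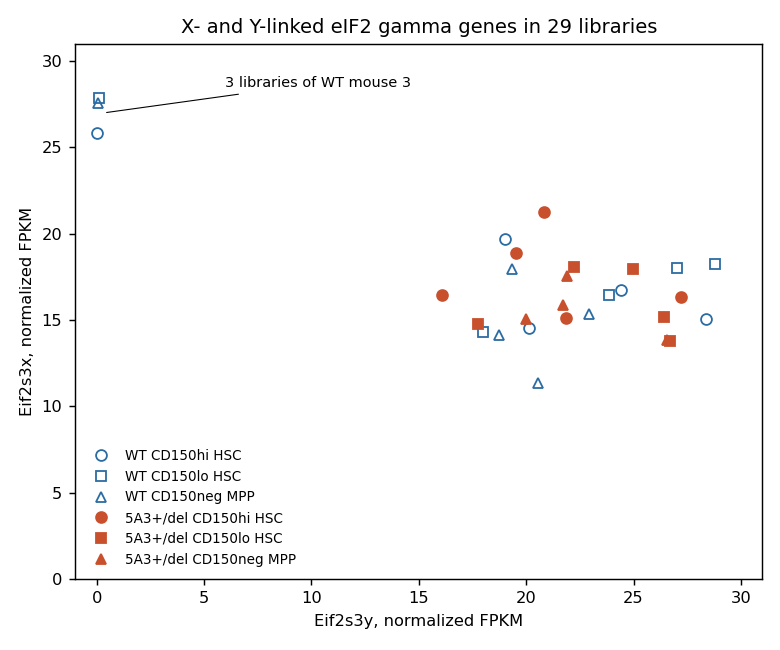
Normalized FPKM of Eif2s3y (horizontal) against Eif2s3x (vertical), 1 mark per library. Open blue marks are WT, filled orange marks 5A3+/del. The 3 libraries of WT mouse 3 lie at 0 to 0.125 on the horizontal axis and 25.9 to 27.9 on the vertical axis, apart from the other 26.

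In the 26 libraries of the other mice the Y-linked gene was the higher in most, at a median of 1.39 times Eif2s3x and a range of 0.966 to 1.93 times. The sum of both genes was 31.9 to 47.0 normalized FPKM there, and in mouse 3 it was almost all from the X-linked gene. With all mice, the 5A3+/del minus WT difference of Eif2s3y was 0.79 on the log2 scale in CD150hi HSC (limma, adjusted p = 0.75), then 0.86 for CD150lo HSC (adjusted p = 0.95) and 1.00 for CD150neg MPP (adjusted p = 1.00). Without WT mouse 3 these became -0.12, -0.04 and 0.13. For Eif2s3x the difference in CD150lo HSC was -0.21 with and -0.07 without that mouse.

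The first question was whether loss of 1 copy of the interval went with other levels of translation factor mRNA. No member passed an adjusted p of 0.05 (limma on all genes) between 5A3+/del and WT in any of the 3 populations. Of all genes tested, 0.156% passed in CD150hi HSC, and the share was 0.0324% for CD150lo HSC and 0.0454% for CD150neg MPP. These shares moved with single mice: the 24 genes passing in CD150hi HSC became 4 without WT mouse 4 and 40 without WT mouse 5, the 5 in CD150lo HSC became 77 without WT mouse 5, and the 7 in CD150neg MPP became 3 to 8. At an unadjusted p under 0.05 there were 11 members of 67 in CD150hi HSC (16.4%, against 13.1% of all genes), 6 in CD150lo HSC (8.96%, against 6.87%) and 0 in CD150neg MPP (against 4.27%). Leaving out a mouse gave 7 to 14, 3 to 12 and 0 to 5 members in these populations, with 12 in CD150lo HSC without WT mouse 5, 3 without WT mouse 1 or 2, and 5 in CD150neg MPP without 5A3+/del mouse 4. The members' median difference was -0.02 (CD150hi HSC), 0.01 (CD150lo HSC) and -0.01 (CD150neg MPP), with all genes at 0.00, 0.01 and 0.00.

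Library by library, 5 members had groups that did not overlap in CD150hi HSC, 7.46% of those tested against 2.58% of all genes. There were 6 in CD150lo HSC, 8.96% against 1.63% of all genes, and 0 in CD150neg MPP, against 1.51%. Eif3e was the member in this set in both HSC populations. In CD150hi HSC the others were Eif2b5, Eif4a2, Eif3h and Eif1a, and in CD150lo HSC they were Eif5a, Eef1b2, Eef1e1, Eif3f and Eif5b.

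Eif3e and its pseudogene differed in the same direction. Normalized FPKM of Eif3e in CD150hi HSC was 197, 238, 136, 182 and 201 in WT and 255, 282, 288, 318 and 300 in 5A3+/del. In CD150lo HSC it was 197, 167, 181, 178 and 243 in WT and 295, 305, 272, 272 and 272 in 5A3+/del. Every 5A3+/del HSC library was thus above every WT library of its population, and equal values are those of libraries in which the gene had the same rank.

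The difference of Eif3e was 0.61 ± 0.17 on the log2 scale (SE, adjusted p = 0.11 by limma) in CD150hi HSC and 0.56 ± 0.17 (adjusted p = 0.27) in CD150lo HSC. In CD150neg MPP it was at 313, 235, 295, 228 and 253 in WT and 132, 243, 266 and 292 in 5A3+/del, a difference of -0.23 ± 0.18 with overlapping groups. That value rested on 5A3+/del mouse 1, the library at 132, and without this mouse it was 0.02. The genotype difference was larger in CD150hi HSC than in CD150neg MPP by 0.85 ± 0.24 and in CD150lo HSC by 0.79 ± 0.24, and neither passed after adjustment (adjusted p = 0.38 and 0.63 by limma). Without 5A3+/del mouse 1 these were 0.64 and 0.53 (adjusted p = 0.59 and 0.93). Without WT mouse 3, the lowest WT library, the CD150hi HSC difference was 0.50 (adjusted p = 0.20).

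Eif3s6-ps1 in CD150hi HSC was at 9.499, 10.3, 4.94, 6.58 and 7.36 in WT and at 9.97, 13.0, 11.5, 13.8 and 11.9 in 5A3+/del, a difference of 0.61 ± 0.25 (adjusted p = 0.29 by limma) with overlapping groups. How many of its reads came from Eif3e was not tested. Other eIF3 subunits lay on either side. Eif3c was 0.31 ± 0.12 higher in 5A3+/del CD150hi HSC, and Eif3h and Eif3f had differences of -0.29 ± 0.10 and -0.23 ± 0.09 (adjusted p = 0.26, 0.21 and 0.27). Without WT mouse 3 the value of Eif3f was -0.30 (adjusted p = 0.17 by limma). Of the 13 subunits tested, 6 had values above 0 and 7 below in CD150hi HSC, and the median was -0.04 (-0.10 to 0.03 with a mouse left out).

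**Figure D3:**
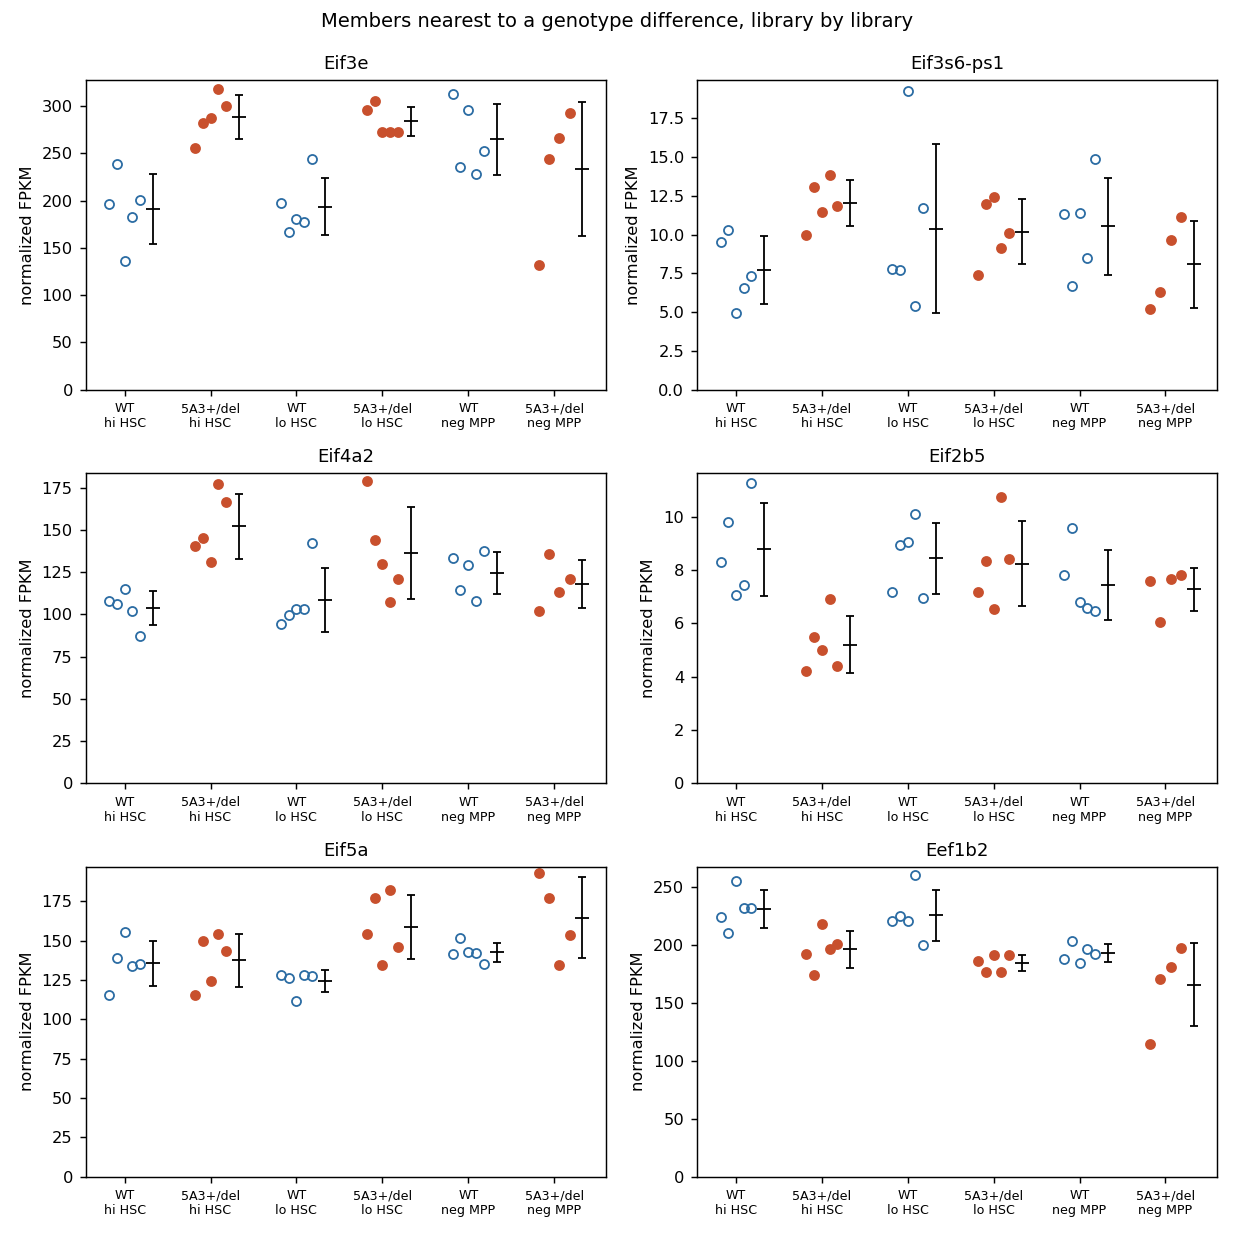
Normalized FPKM in each library for 6 members near a genotype difference, with WT as open blue and 5A3+/del as filled orange points in each population and black bars for mean ± SD. Eif3e in both HSC populations, Eif4a2 and Eif2b5 in CD150hi HSC, and Eif5a and Eef1b2 in CD150lo HSC show groups that do not overlap.

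The member nearest to the threshold was Eif2b5, the catalytic epsilon subunit of eIF2B, on chromosome 16 at 20498890 to 20510028. Its normalized FPKM in CD150hi HSC was 8.31, 9.81, 7.07, 7.43 and 11.3 in WT and 4.23, 5.48, 4.99, 6.93 and 4.41 in 5A3+/del. The highest 5A3+/del value lay just under the lowest WT value. The difference was -0.65 ± 0.15 on the log2 scale (adjusted p = 0.052 by limma), with 5 of 18 alternatives under 0.05 and a range of adjusted p from 0.032 to 0.14 over them. With mouse as a random block the adjusted p was 0.0498.

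In the other populations the Eif2b5 difference was -0.04 in CD150lo HSC and -0.02 in CD150neg MPP, with adjusted p of 0.99 and 1.00 by limma. The change of that difference between CD150hi and CD150lo HSC was -0.62 ± 0.21 and did not pass (unadjusted p = 0.0062, adjusted p = 1.00). The other eIF2B subunits in CD150hi HSC ran from -0.36 for Eif2b1 to 0.02, and 4 of all 5 were below 0, with a list median of -0.28 against 0.00 for all genes. Summed over the 5 subunits, normalized FPKM was 32.9 to 41.5 in WT CD150hi HSC and 26.9 to 32.7 in 5A3+/del CD150hi HSC. This sum includes Eif2b5, and each of the other subunits had overlapping groups.

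Eif4a2, a DEAD-box helicase of the eIF4F complex, was 108, 106, 115, 102 and 87.4 normalized FPKM in WT CD150hi HSC and 140, 145, 131, 177 and 166 in 5A3+/del CD150hi HSC. All 5A3+/del values were above all WT values. The difference was 0.55 ± 0.13 (adjusted p = 0.077 by limma), and it passed in 2 of 18 alternatives. In CD150lo HSC it was 0.32 ± 0.13 (adjusted p = 0.62), with 1 WT library at 142 inside the 5A3+/del range of 107 to 179. Eif4a1, its close paralog, had 47.2 ± 2.53 (SD, n = 5) in WT and 44.7 ± 4.00 (SD, n = 5) in 5A3+/del CD150hi HSC.

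All 4 eIF4E binding inhibitors had negative differences in CD150hi HSC, from -0.57 to -0.02 with a median of -0.23, and none passed. They include Eif4ebp3, which had few fragments and varied widely between libraries of a group. Eif4ebp1 was at 13.4 in 5A3+/del mouse 1 and 24.0 to 32.6 in the other 5A3+/del mice, against 21.3 to 32.5 in WT. Eif4ebp2 was lowest among those well measured, at 138 ± 29.9 (SD, n = 5) in WT and 105 ± 18.7 (SD, n = 5) in 5A3+/del, a difference of -0.38 ± 0.17 (adjusted p = 0.34 by limma) with overlapping groups. In CD150lo HSC the median of these inhibitors was 0.06 and in CD150neg MPP 0.03.

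In CD150lo HSC the remaining named members were spread over elongation and start codon selection. Eif5a, the hypusine-bearing factor that relieves stalled ribosomes, was at 129, 126, 112, 129 and 128 in WT and 154, 177, 135, 182 and 146 in 5A3+/del, and the groups did not overlap. Its difference was 0.34 ± 0.11 (adjusted p = 0.37 by limma). Eef1b2, an exchange factor for eEF1A, was at 221, 225, 221, 260 and 199 in WT and 186, 177, 191, 177 and 191 in 5A3+/del, again with no overlap.

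The Eef1b2 difference was -0.28 ± 0.11 (adjusted p = 0.57 by limma), and it was -0.25 ± 0.12 in CD150neg MPP, where it had the smallest unadjusted p of the members (0.051). There 5A3+/del mouse 1 was the lowest of the 4 5A3+/del libraries, and without it the value was -0.08. Eef1e1, a protein of the multi-synthetase complex, had -0.56 ± 0.28 in CD150lo HSC (adjusted p = 0.75). Eif2ak1, Eif1 and Eif1a had differences of 0.33, -0.25 and 0.33 in that population, each with an adjusted p of at least 0.62. In CD150neg MPP the other named members were Eif1b (-0.39), Eif4h (0.19), Eif2b3 (-0.34), Eif5a (0.19), Eif4e (0.23), Eif1 (-0.18) and the row Eif2c2 (-0.27), each with an adjusted p of 1.00. Without 5A3+/del mouse 1 the values of Eif1b and Eif5a were -0.21 and 0.12, that of Eif2c2 was -0.14 without 5A3+/del mouse 2, and that of Eif2b3 was -0.55 without 5A3+/del mouse 4.

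By role, some lists lay mostly on one side of 0, with no call in any. The 4 eIF2 alpha kinases all had differences above 0 in CD150hi HSC (median 0.07), and 3 of them in each of the other populations, but 2 of 4 in CD150hi HSC without 5A3+/del mouse 2 or WT mouse 5. The tested genes with Eef1 names include Eef1e1, of the multi-synthetase complex, which had the lowest value of this list in CD150lo HSC (-0.56). The list was below 0 in 4 of 5 cases in CD150hi HSC (median -0.09) and in CD150lo HSC (median -0.25), but in 2 of 5 in CD150neg MPP (median 0.02). Without 5A3+/del mouse 1 the CD150hi HSC count was 2 of 5 with a median of 0.00, and over all leave-outs that median ran down to -0.21. The start codon and scanning factors were below 0 in 5 of 5 cases in CD150neg MPP (median -0.17), in 4 of 5 in CD150lo HSC (median -0.12) and in 2 of 5 in CD150hi HSC (median 0.03). Without 5A3+/del mouse 1, in which Eif1a was lowest of the 4, the CD150neg MPP count was 4 of 5 with a median of -0.06, the value of Eif1a there going from -0.17 to 0.05. Without 5A3+/del mouse 4 the medians were -0.27 in CD150neg MPP, -0.25 in CD150lo HSC and -0.08 in CD150hi HSC. The medians over all genes, given above, were 0.00 to 0.01.

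The abundant elongation factors had overlapping ranges by genotype. Eef1a1 was at 1073 ± 122 (SD, n = 5) in WT and 1147 ± 106 (SD, n = 5) in 5A3+/del CD150hi HSC, and Eef2 at 412 ± 49.5 and 418 ± 47.9. For Eif6 the means were 10.7 ± 0.633 and 9.37 ± 2.34, and for Eif4e 24.5 ± 5.28 and 29.4 ± 3.77. The ranges of Eif6 and Eif4e overlapped as well.

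The second question was how the factors differed between stem cell populations of a genotype. In WT, CD150hi HSC differed from CD150neg MPP at 10.0% of all genes tested, and no member of 67 was among them (limma, adjusted p under 0.05), while 7 members had an unadjusted p under 0.05, or 10.4% against 21.8% of all genes. The nearest were Eif3f (0.27 ± 0.10, adjusted p = 0.060) and Eif3e (-0.48 ± 0.17, adjusted p = 0.067). Without WT mouse 3 these were 0.31 (adjusted p = 0.057 by limma) and -0.33 (adjusted p = 0.32). Eif3e passed when 5A3+/del mouse 1 was left out of the shared spread (-0.48, adjusted p = 0.016 by limma). With WT mouse 2 left out, 1 member passed, with a lower value in CD150hi HSC. With mouse as a block, random or fixed, Eif3f passed, with an adjusted p of 0.040 or 0.042. For CD150lo HSC against CD150neg MPP, 0.188% of all genes (29, and 0 to 72 with a mouse left out) and 0 members passed, with unadjusted shares of 8.75% of all genes and 7.46% of members (5 of 67).

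Eif3f in WT was at 80.4, 82.3, 66.4, 87.4 and 83.5 normalized FPKM in CD150hi HSC and 73.8, 64.2, 60.3, 67.9 and 63.0 in CD150neg MPP. In 4 of 5 mice the CD150hi library was above every CD150neg MPP library, and mouse 3 was the exception. Eif3e in WT CD150neg MPP, given above, was over the CD150hi HSC value of the same mouse in 4 of 5 mice.

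**Figure D4:**
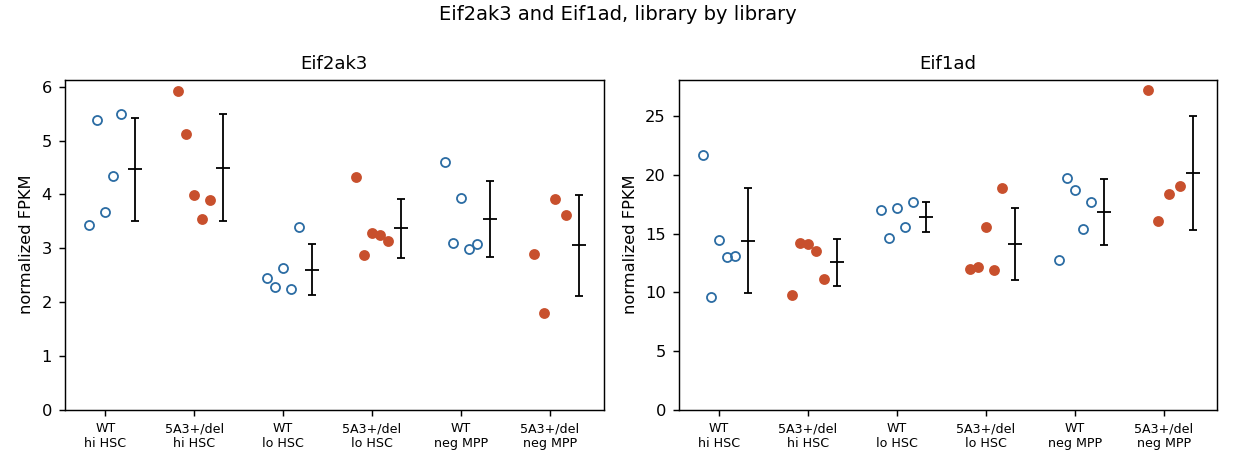
Normalized FPKM in each library of the kinase gene Eif2ak3 and of Eif1ad, by population and genotype, with black bars for mean ± SD. In WT, all 5 CD150hi HSC values of Eif2ak3 (3.43 to 5.49) lie above all CD150lo HSC values (2.25 to 3.40).

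Between CD150hi and CD150lo HSC of WT mice, 3.53% of all genes passed and 1 of 67 members did: Eif2ak3, the endoplasmic reticulum stress kinase PERK. Its normalized FPKM was 3.43, 5.38, 3.67, 4.33 and 5.49 in CD150hi HSC and 2.46, 2.28, 2.64, 2.25 and 3.40 in CD150lo HSC. The lowest CD150hi value was just above the highest CD150lo value, and within each mouse CD150hi was the higher. The difference was 0.59 ± 0.16 on the log2 scale (adjusted p = 0.030 by limma).

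This call rested on few libraries. Without WT mouse 2, 3, 4 or 5 the adjusted p was 0.20, 0.062, 0.13 or 0.079, and with mouse as a fixed block it was 0.051 (as a random block 0.022). In 5A3+/del the same comparison gave 5.92, 5.12, 3.98, 3.55 and 3.90 against 4.32, 2.87, 3.29, 3.24 and 3.13, a difference of 0.32 ± 0.16 (adjusted p = 0.38) with overlapping groups. The difference between the genotypes in this contrast was -0.27 and did not pass (adjusted p = 1.00). At an unadjusted p under 0.05, 5 members stood in the WT comparison (7.46%, against 14.1% of all genes).

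In 5A3+/del mice, CD150hi HSC against CD150neg MPP gave 6.16% of all genes and 1 member, Eif1ad, named after its values were seen. Eif1ad encodes a nuclear protein with an eIF1A-like domain, and its normalized FPKM was 9.81, 14.2, 14.1, 13.5 and 11.1 in CD150hi HSC and 27.2, 16.1, 18.4 and 19.1 in CD150neg MPP. The groups did not overlap, and the highest value was that of mouse 1. The difference was -0.63 ± 0.18 (adjusted p = 0.037 by limma); without 5A3+/del mouse 1 it was -0.41 (adjusted p = 0.36), and with mouse as a fixed block it was -0.67 (adjusted p = 0.070). Leaving out 5A3+/del mouse 3, 4 or 5, or WT mouse 3, 4 or 5, gave adjusted p between 0.055 and 0.079. In WT the same comparison of Eif1ad had overlapping groups, 9.64 to 21.7 against 12.7 to 19.7.

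Between CD150hi and CD150lo HSC of 5A3+/del mice, 3.18% of all genes passed and 1 member, Eif2b5, in a comparison where it was named after its values were seen. Its CD150lo HSC values were 7.18, 8.34, 6.55, 10.7 and 8.43, against the CD150hi values of 4.23 to 6.93 given above. Within each 5A3+/del mouse the CD150hi library was the lower, and the groups overlapped only through mouse 4 in CD150hi HSC and mouse 3 in CD150lo HSC. The difference was -0.57 ± 0.15 (adjusted p = 0.025 by limma), and -0.57 with an adjusted p of 0.027 with mouse as a fixed block. Without 5A3+/del mouse 1, 2 or 5 the adjusted p was 0.088, 0.079 or 0.13. This comparison shares the CD150hi HSC libraries of 5A3+/del with the genotype comparison above. In WT the difference of Eif2b5 between these populations was 0.04.

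For CD150lo HSC against CD150neg MPP in 5A3+/del, 0.0389% of all genes and no member passed. Unadjusted, the members numbered 9 for CD150hi HSC against CD150neg MPP (13.4%, against 16.9% of all genes), 4 for CD150lo HSC against CD150neg MPP (5.97%, against 4.95%) and 1 for CD150hi against CD150lo HSC (1.49%, against 13.3%), the last being Eif2b5.

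**Figure D5:**
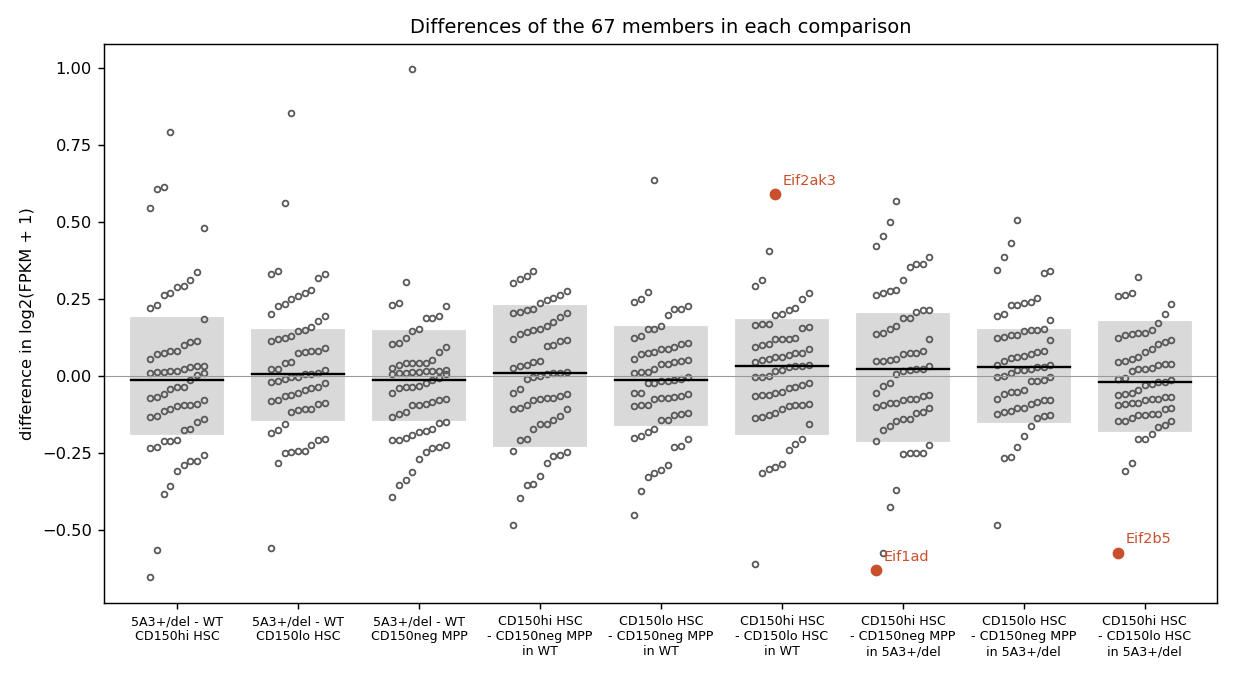
Difference in log2(FPKM + 1) for each of the 67 members in the 9 comparisons. Black lines are member medians, grey boxes hold the middle 50% of all genes tested, and filled orange points are members with an adjusted p under 0.05. Eif2s3y is the highest point in each genotype comparison, at 0.79, 0.86 and 1.00, and the member medians lie between -0.02 and 0.03.

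Whether the genotype difference itself varied between populations was tested in the same model. No gene passed in any of these contrasts (limma, 0% of all genes), members included, and with a mouse left out at most 11 genes did. At an unadjusted p under 0.05 there were 8 members for CD150hi HSC against CD150neg MPP (11.9%, against 7.96% of all genes), 3 for CD150lo HSC against CD150neg MPP (4.48%, against 5.00%) and 1 for CD150hi against CD150lo HSC (1.49%, against 3.98%). Eif3e, Eif4a2 and Eif2b5 were among the 8, with 0.85, 0.62 and -0.63.

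Factors that work beside these genes, and are not members by name, were examined as lists. The 8 termination and recycling factors, the 2 hypusine enzymes that modify Eif5a and the 8 mitochondrial translation factors had no call in any of the 12 contrasts. Among 11 partners at the cap and poly(A) tail, 2 passed in WT CD150hi HSC relative to CD150neg MPP, where 10.0% of all genes did: Paip2 and Pdcd4, both lower. None of the 11 passed in that comparison of 5A3+/del. Paip2, an inhibitor of the poly(A) binding protein, was at 69.3 to 73.2 against 79.7 to 95.5 normalized FPKM (-0.30 ± 0.09, adjusted p = 0.028 by limma). Pdcd4, which holds eIF4A away from the cap complex, was at 18.7 to 28.1 against 32.3 to 39.4 (-0.48 ± 0.15, adjusted p = 0.046). In 5A3+/del the differences were -0.03 for Paip2 and -0.18 for Pdcd4 (adjusted p = 0.91 and 0.66 by limma).

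Of 9 genes of the integrated stress response, which acts downstream of the eIF2 alpha kinases, 8 were tested, and 1 passed in CD150hi HSC against CD150neg MPP of each genotype, where 10.0% (WT) and 6.16% (5A3+/del) of all genes did. Trib3 rose in WT CD150hi HSC relative to CD150neg MPP, at 3.54 to 8.79 against 2.13 to 4.44 (0.84 ± 0.26, adjusted p = 0.039 by limma) with overlapping ranges. Asns, asparagine synthetase, rose in the same comparison of 5A3+/del, at 4.18 to 14.7 against 1.16 to 3.97 (1.05 ± 0.28, adjusted p = 0.021) with no overlap. Neither passed in the other genotype, with 0.66 for Trib3 in 5A3+/del and 0.53 for Asns in WT (adjusted p = 0.20 and 0.25 by limma). None of the 8 passed by genotype. All 8 had genotype differences below 0 in CD150hi HSC (median -0.19), as did 6 in CD150lo HSC (median -0.15) and 6 in CD150neg MPP (median -0.26). Within the members, 9 whose mRNAs are classed as terminal oligopyrimidine mRNAs, among them Eef1a1, Eef2, Eif3e and Eif4b, had no call in these comparisons, with medians of -0.06, 0.00 and 0.02 for the genotype difference in the CD150hi, CD150lo and CD150neg populations, taken in that order. Leaving out a mouse moved the first of these between -0.13 and 0.05. For 5 of the 9 a RefSeq start window (GRCm38.p6) was found, and a C at the start followed by at least 4 pyrimidines stood in 1 of them, Eif3f, against 3.01% of all genes with such a window. Eef1a1, Eef2, Eif4b and Eef1b2 did not have these letters at the annotated start.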

How the data were processed

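Per the labels, RNA of sorted cells was amplified (NuGEN Ovation V2), made into TruSeq libraries and read as paired ends of 100 bases. The deposited table gives FPKM per gene and library. The submitters' processing notes name Bowtie 0.12.2, HTSeq and mm9 without roles; the authors' own exon-based measure was not used here. No sample column was left out.

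Genes with at least 1 FPKM in at least 4 libraries (15409 of 30025) were taken as log2(FPKM + 1), quantile normalized across 29 libraries and fitted with limma 3.58.1 (R 4.3.3) on 6 group means. P-values were adjusted over all genes tested (Benjamini-Hochberg), with a threshold of 0.05. Differences are on the log2(FPKM + 1) scale, which understates those of low genes. On simulated data for the genotype comparison in CD150hi HSC (15409 genes), the test recovered 115 of 200 genes changed by 1 on the log2 scale and called 5 unchanged ones. Groups came from the labels. The members, gene lists and tests were chosen with earlier results of these data known.

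Fragments per library were rebuilt from the steps between low FPKM values and GENCODE vM1 exon lengths, and 98.5% to 99.0% of low values came out within 0.05 of a whole fragment. Counts and floors cover counting error only. Of the 70 members, 67 had a GENCODE entry by identifier. Members with shared sequence were aligned with Biopython 1.88.

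The genes named were, for each genotype comparison, the members past the threshold filled up to the 8 with the smallest unadjusted p; for populations, those past it in WT with their 5A3+/del values; the highest member of each role; and a fixed set (Eif2s3x, Eif2s3y, Eef1a1, Eef2, Eif4e, Eif4ebp1 to Eif4ebp3, Eif2ak1 to Eif2ak4, Eif5a and Eif6). Alternatives were a pseudocount of 0.1, no filter, at least 10 FPKM in a library, no further normalization, median scaling, a variance trend, age as a covariate, mouse as a random or fixed block, and leaving out each mouse. Libraries of a mouse are paired by its code in the labels: their deviations from the group means correlated at -0.04 to 0.23 (median 0.08, 28 pairs), against a median of -0.03 for different mice of a genotype. The 5A3+/del and WT mice are different animals and are not paired. Erythroid marker values are not reported here; they varied between groups, and their part in the results was not tested.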

Additional observations from a re-analysis of the deposited data

Results flagged for a closer look

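Among 34 named members in 6 groups, 204 sets of 4 or 5 libraries were examined for a library far from the others (Dixon's gap ratio), and 14 held one. Chance alone flags about 1 in 20 sets, or 10.2 here. All values are normalized FPKM.

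The value of Eif2s3y in WT CD150neg MPP of mouse 3 was 0.0765 against 18.7 to 22.9 in the other 4 mice, and Eif2s3x in WT CD150lo HSC of the same mouse was 27.9 against 14.3 to 18.3. Mouse 3 also had the low extreme of Eif5a in WT CD150lo HSC, at 112 against 126 to 129.

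In 5A3+/del CD150hi HSC, mouse 1 was apart for Eif2ak4 (13.2 against 8.16 to 8.498), Eif6 (5.22 against 9.91 to 10.7) and Eif2a (31.4 against 25.2 to 25.9), and in CD150lo HSC for Eif2ak3 (4.32 against 2.87 to 3.29). The other 5A3+/del flags were in CD150neg MPP: Eif2b5 of mouse 2 (6.07 against 7.60 to 7.80), and Eif4h (51.5 against 60.1 to 60.5) and Eif2b3 (3.86 against 1.56 to 1.90) of mouse 4. In WT they were Eif4a2 of mouse 5 in CD150lo HSC (142 against 94.4 to 103), Eif4h of mouse 5 in CD150hi HSC (62.6 against 54.9 to 56.9), Eif2b3 of mouse 4 in CD150lo HSC (4.17 against 2.49 to 2.94) and Eif4ebp3 of mouse 1 in CD150neg MPP (4.54 against 0.432 to 0.856).

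No member's genotype difference varied between populations past an adjusted p of 0.05 (limma).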

How the results depend on the processing

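The 505 alternative values of differences cover the named members only in the comparisons for which each was named. Direction was kept in all 505, of which 481 also kept their side of the threshold. The 198 alternative levels moved by less than 1 SD. Outside this count, the genotype differences of Eif2s3y in both HSC populations changed sign with a mouse left out, as given above. Those of Eif3e and Eif1a in CD150neg MPP did so too. Of 222 alternative counts of members past the threshold, 192 were the same. For the genotype difference in CD150hi HSC the count of 0 became 1 with no filter on low values (Eif2b5) and with mouse as a random block (Eif2b5), and 2 with at least 10 FPKM in a library and with a variance trend (Eif2b5 and Eif4a2). For CD150hi HSC against CD150neg MPP in WT the count of 0 became 1 with no filter, with at least 10 FPKM, and with mouse as a random or as a fixed block (Eif3f in each), and 2 with a variance trend (Eif3e and Eif3f). For CD150hi against CD150lo HSC in WT the count of 1 became 0 with at least 10 FPKM, where Eif2ak3 was not tested, and with the fixed block. For CD150hi HSC against CD150neg MPP in 5A3+/del it became 0 with no filter and with the fixed block. The blocks changed no other member count. Leaving out each mouse gave counts of 0 to 1 in the genotype comparison of CD150hi HSC and in CD150hi HSC against CD150neg MPP and against CD150lo HSC in both genotypes. The cause of these changes was not tested, other than that fewer or more genes were adjusted over. Over all genes, the count for the genotype difference in CD150hi HSC was 56 with the random block against 24, and for CD150lo HSC against CD150neg MPP it was 1 (WT) and 2 (5A3+/del) with the fixed block and 65 and 7 with the random block, against 29 and 6.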
